A study of Mus musculus with 13 samples.

Results

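Transcripts of 10 regulators of mitochondrial genes were examined in the gastrocnemius muscle of 13 obese male C57BL/6 mice, given as C57BL/6N in the study's legends for its RNA-seq data: the coactivators Ppargc1a and Ppargc1b (PGC-1α and PGC-1β), the estrogen-related receptors Esrra, Esrrb and Esrrg, the transcription factors Nrf1 and Tfam, the nuclear receptors Ppara and Ppard, and the muscle regulator Perm1. They were taken by name from a table of 21868 genes. All mice were 7 weeks old at the start, were fed a 60 kcal% fat diet for 15 to 17 weeks after 1 week of acclimatization and were then moved to standard chow, so that they were 26 to 28 weeks old when the 3 weeks of treatment ended. The groups were 5 vehicle-treated mice (phosphate-buffered saline), 5 mice that received intraperitoneal semaglutide (30 nM/kg, daily), and 3 mice that received this dose together with the ketone ester Qitone, a source of the ketone body β-hydroxybutyrate, at 0.114 g/mL in the water they drank. The labels pair the first 2 treatments with a placebo that is not described further. Semaglutide is an agonist of the glucagon-like peptide-1 receptor that lowers food intake and body weight. The comparisons ask how muscle transcripts differed with it and whether they differed again where the ketone ester was given as well. The ketone ester was given alongside semaglutide to separate mice. A rise or fall with it added is therefore a difference between groups and not a change in time. Mice are named below by the numbers in their labels, 1 to 5 for vehicle, 13 to 17 for semaglutide and 19, 21 and 22 for semaglutide + ketone ester.

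PGC-1 coactivators bind no DNA themselves and are recruited by factors such as the estrogen-related receptors (ERRs), NRF1 and the PPARs, whose binding sites lie near nuclear genes for oxidative phosphorylation, the citric acid cycle and fatty acid oxidation. NRF1 acts in turn on the gene for TFAM, the protein that packages mitochondrial DNA and starts its transcription, so that nuclear and mitochondrial genomes are expressed together. In skeletal muscle this network is known for its response to exercise and fasting and for its high activity in oxidative fibres, and much of its control lies in protein modification, which transcript levels do not show.

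Values are normalized counts per gene, and 15319471 to 23498162 reads were counted on genes per mouse. All 10 genes passed the filter of a mean of at least 10 normalized counts over the 13 mice, as did 12303 genes in all. Skeletal muscle markers were present in every mouse (8 of 8 genes, summed level of at least 1738560 normalized counts), and the marker lists that moved with the groups are given after the results of the 10 genes. Differences below are on the log2(normalized count + 1) scale ± SE and were tested with limma, and p-values were adjusted after Benjamini and Hochberg across the 12303 genes, with a threshold of 0.05. Semaglutide mice 13 and 14 stood apart from mice 15 to 17 for several genes below, and calls that change without 1 of them are given both ways. Each sample is 1 mouse, so the p-values measure the spread between mice. In bulk muscle, fewer cells of a type and less RNA per cell cannot be told apart.

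The promoters of the genes that moved were read from RefSeq (GRCm38.p6), which held windows of 250 bases before to 50 after the start site for 9 of the 10 genes, 14 windows in all; the window of Ppargc1b is not analysed here. Esrra and Perm1 are printed because both fell with semaglutide, Tfam and Ppara because they hold a searched site. The stretches lie outside exons annotated in GENCODE M21, apart from that of Tfam, which is 30 bases around the site in a window mostly covered by Tfam exons, and capitals mark the motif found. Esrra is from chr19:6921814-6922058 (minus strand), 250 to 6 bases before the RefSeq start. Perm1 is from chr4:156215677-156215867 (plus strand), 250 to 60 bases before it. Tfam is from chr10:71238073-71238102 (minus strand) and Ppara from chr15:85735714-85735775 (plus strand).
Esrra: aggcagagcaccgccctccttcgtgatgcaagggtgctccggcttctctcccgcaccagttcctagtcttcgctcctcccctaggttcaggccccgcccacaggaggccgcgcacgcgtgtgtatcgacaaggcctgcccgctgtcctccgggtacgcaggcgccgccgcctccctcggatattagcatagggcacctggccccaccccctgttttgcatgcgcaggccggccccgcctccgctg
Perm1: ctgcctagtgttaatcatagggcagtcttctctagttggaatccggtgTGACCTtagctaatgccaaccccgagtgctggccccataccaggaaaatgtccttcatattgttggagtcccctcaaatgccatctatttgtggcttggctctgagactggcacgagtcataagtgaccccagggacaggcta
Tfam: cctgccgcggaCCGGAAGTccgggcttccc
Ppara: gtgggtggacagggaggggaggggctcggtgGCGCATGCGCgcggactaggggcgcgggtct

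Motifs were searched on both strands. The nuclear receptor core AGGTCA, contained in the ERR and PPAR elements, was in the Perm1 window on the minus strand, starting 202 bases before the start, and in no other of the 14; 16.3% of all 32851 windows held it. The ETS site CCGGAAGT of GABPA, a partner of PGC-1, was in the Tfam window, starting at base -47, against 3.89% of all windows. The palindromic NRF1 site, 10 letters long and shown in capitals above, was in the Ppara window, starting at base -31, against 0.971% of all windows. The ERR element TNAAGGTCA (1.28% of all windows), the cAMP response element TGACGTCA (1.79%) and the PPAR direct repeat, which is AGGTCA on either side of 1 free base (0.0396%), were in none of the 14. These matches describe letters in short windows, and enhancers and first introns were not searched.

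The regulators moved in both directions in semaglutide-treated mice. Against vehicle, Nrf1 and Ppard rose, while Esrra, Tfam, Ppara and Perm1 fell, which makes 6 of 10 genes past the threshold where 25.1% of all genes tested were past it (2 of 10 higher, against 11.9%, and 4 of 10 lower, against 13.2%). In the ketone ester group Esrra was higher and Nrf1 and Ppard were lower than with semaglutide alone, 3 of 10 genes where 18.4% of all genes were called (1 higher, against 9.09%, and 2 lower, against 9.3%). Between semaglutide + ketone ester and vehicle 0 of 10 genes passed in limma, where 0.236% of all genes were called (0.0732% higher and 0.163% lower). In edgeR and in DESeq2 0 passed as well. An unadjusted p under 0.05 in limma was found for 2 of the 10 genes (Ppargc1a and Ppargc1b) and for 1289 of all 12303 genes tested. The median difference of the 10 genes was -0.43, 0.34 and -0.07 in these comparisons, while that of all genes tested was within 0.01 of 0 in each. The second comparison shares its semaglutide mice with the first, so opposite signs in them are not separate evidence.

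**Figure D1:**
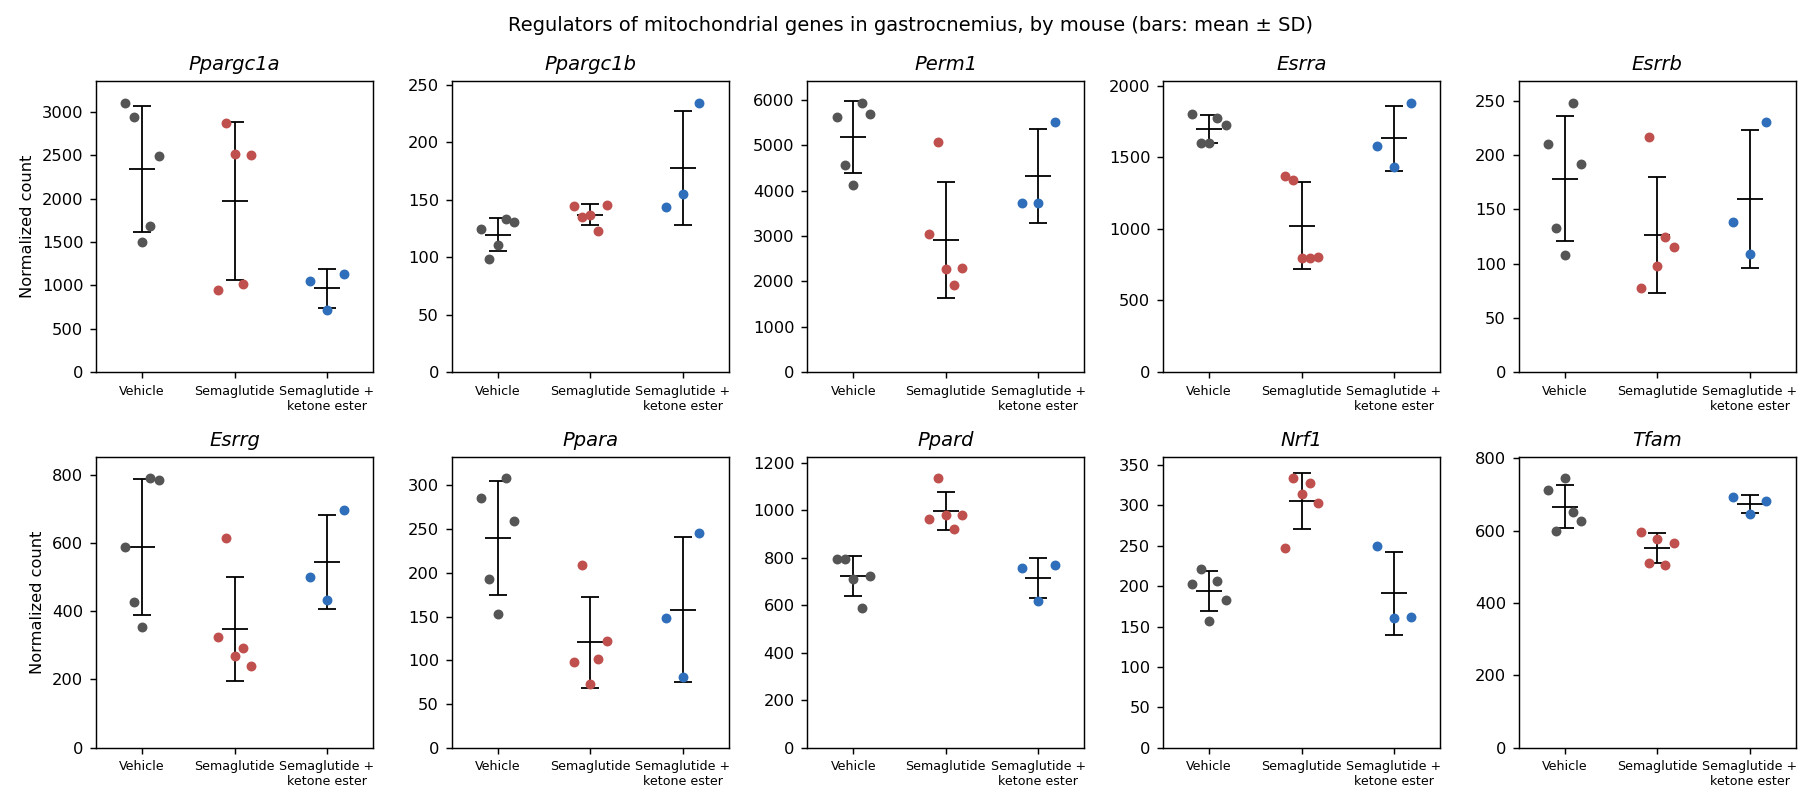
Normalized counts (vertical axes, from 0) of the 10 regulators, with 1 point per mouse for 5 vehicle-treated, 5 semaglutide-treated and 3 semaglutide + ketone ester-treated mice and bars for the mean ± SD. Esrra and Tfam lay below, and Nrf1 and Ppard above, the vehicle values in every semaglutide-treated mouse, whereas Ppargc1a was spread from 944 to 2870 within the semaglutide group.

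Groups that did not overlap were counted as well. Between semaglutide and vehicle 4 of the 10 genes had no overlap, where 14.7% of all genes tested had none (2 higher, against 7.22%, and 2 lower, against 7.45%). They were Nrf1, Ppard, Esrra and Tfam. Semaglutide + ketone ester and semaglutide did not overlap for 3 genes, with Esrra and Tfam higher and Ppard lower, where the share over all genes was 20.1% (9.96% higher and 10.2% lower). Semaglutide + ketone ester and vehicle did not overlap for Ppargc1a, which was lower, and Ppargc1b, which was higher, where 11.3% of all genes did not overlap (5.45% higher and 5.88% lower).

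**Figure D2:**
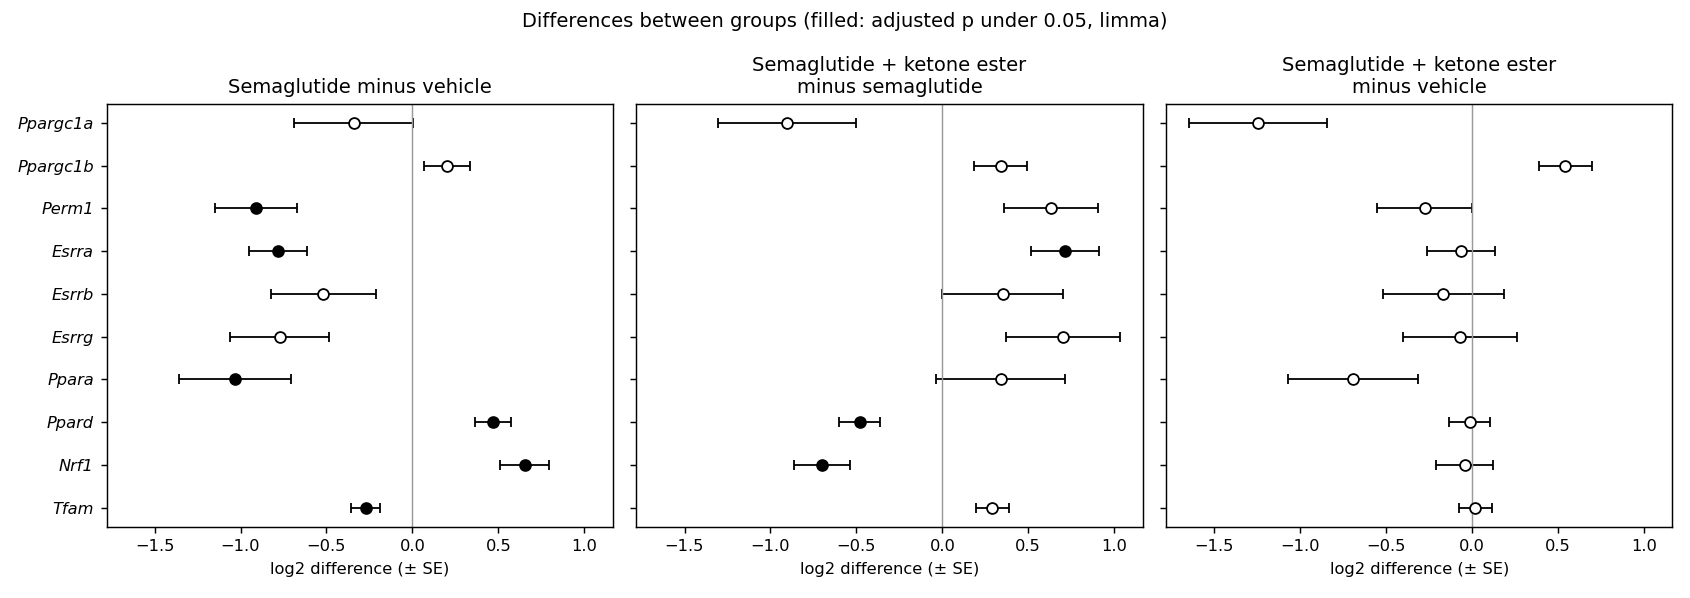
log2 differences ± SE (horizontal axes) of the 10 regulators in the 3 comparisons from the limma fit, with filled points where the adjusted p was under 0.05. There are 6 filled points in semaglutide minus vehicle, 3 in semaglutide + ketone ester minus semaglutide and 0 in semaglutide + ketone ester minus vehicle.

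Ppargc1a encodes PGC-1α, the coactivator that exercise, fasting and cold induce. Its normalized counts were 3108, 2936, 1501, 1680 and 2487 in vehicle mice 1 to 5, 944, 2870, 2519, 1021 and 2506 in semaglutide mice 13 to 17, and 1054, 710 and 1133 in semaglutide + ketone ester mice 19, 21 and 22. Semaglutide mice 13 and 16 lay far below the other 3, which were within the vehicle range, and the 3 mice given the ketone ester were below all vehicle mice. The difference was -0.34 ± 0.35 for semaglutide minus vehicle (adjusted p = 0.501, limma), -0.90 ± 0.40 for semaglutide + ketone ester minus semaglutide (adjusted p = 0.131) and -1.25 ± 0.40 for semaglutide + ketone ester minus vehicle (adjusted p = 0.279). In the second of these it passed without semaglutide mouse 13 (-1.13, adjusted p = 0.0364), with weights for single mice (adjusted p = 0.0112) and with equal library totals (adjusted p = 0.0367). Counts per gene do not separate the 5 annotated transcripts of Ppargc1a, so the shorter isoforms of the coactivator were not resolved.

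Ppargc1b encodes PGC-1β, which shares many partners with PGC-1α and maintains basal mitochondrial gene expression. It was expressed at 125, 98.7, 110, 133 and 130 normalized counts in vehicle mice, 144, 135, 137, 122 and 145 in semaglutide mice and 143, 155 and 234 in semaglutide + ketone ester mice. All 3 mice given the ketone ester were above all vehicle mice, and mouse 22 stood far above the rest. No comparison passed the threshold (0.20 ± 0.13, adjusted p = 0.296 for semaglutide minus vehicle; 0.34 ± 0.15, adjusted p = 0.140 for the ketone ester added; 0.54 ± 0.15, adjusted p = 0.210 against vehicle), apart from semaglutide minus vehicle at equal library totals (adjusted p = 0.0427).

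The balance of the coactivators can be read within a mouse, where the scaling of the library cancels. The log2 ratio of Ppargc1a to Ppargc1b was 4.24 ± 0.54 in vehicle (SD, n = 5), 3.70 ± 0.76 in semaglutide (n = 5) and 2.45 ± 0.37 in semaglutide + ketone ester (n = 3). The range with the ketone ester, 2.20 to 2.88, lay below the vehicle range of 3.66 to 4.89, while the semaglutide mice ran from 2.71 to 4.41 and overlapped both. These ratios were not tested.

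Esrra encodes ERRα, the receptor that carries much of the PGC-1α signal to genes of oxidative phosphorylation. Its normalized counts were 1800, 1598, 1596, 1777 and 1727 in vehicle mice, 1369, 1341, 799, 798 and 800 in semaglutide mice and 1580, 1433 and 1882 in semaglutide + ketone ester mice. Within the semaglutide group, mice 13 and 14 lay well above mice 15 to 17, yet all 5 were below every mouse of the other groups. Esrra fell by 0.78 ± 0.17 with semaglutide (adjusted p = 0.00713, limma), a call that held in each of 13 fits without 1 mouse and under the 13 other settings tried. It was 0.72 ± 0.20 higher with the ketone ester added (adjusted p = 0.0263), and the difference from vehicle was then -0.07 ± 0.20 (adjusted p = 0.957). The second call was lost without semaglutide mouse 15 or 17 or without any of the mice given the ketone ester (adjusted p from 0.0550 to 0.117), with only the groups compared in the fit (adjusted p = 0.1001) and at equal library totals (adjusted p = 0.0670). Of the exon bases of Esrra, 3.74% overlapped Trmt112 and Mir6990. The overlap on the same strand was 2.07%, and reads there could belong to another gene even in stranded libraries.

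Esrrg encodes ERRγ, which is most abundant in oxidative tissues such as heart and slow muscle. It was measured at 588, 427, 354, 789 and 785 normalized counts in vehicle mice, 325, 614, 269, 292 and 240 in semaglutide mice and 502, 432 and 697 in semaglutide + ketone ester mice. Semaglutide mouse 14 was within the vehicle range and the other 4 were below all vehicle mice. The difference of -0.77 ± 0.29 for semaglutide minus vehicle missed the threshold (adjusted p = 0.0674), and passed it without semaglutide mouse 14 or vehicle mouse 3 (adjusted p from 0.0170 to 0.0396), in DESeq2 on whole reads (adjusted p = 0.0250), with weights for single mice (adjusted p = 0.0346) and with a prior variance that follows the mean (adjusted p = 0.0462). The difference with the ketone ester added was 0.70 ± 0.33 (adjusted p = 0.156, and 0.0471 without mouse 14).

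Esrrb encodes ERRβ, known for its role in pluripotent cells and placenta and expressed at low levels in muscle. Its values were 211, 132, 108, 248 and 192 normalized counts in vehicle mice, 77.4, 216, 97.8, 124 and 115 in semaglutide mice and 138, 109 and 231 in semaglutide + ketone ester mice. The 3 groups overlapped throughout. No difference passed (-0.52 ± 0.30, adjusted p = 0.233 for semaglutide minus vehicle; 0.35 ± 0.35, adjusted p = 0.518 for the ketone ester added). The log2 ratio of Esrra to Esrrg was 1.60 ± 0.45 in vehicle, 1.59 ± 0.35 in semaglutide and 1.61 ± 0.15 in semaglutide + ketone ester (SD), and the ranges overlapped.

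Nrf1 encodes nuclear respiratory factor 1, a factor for respiratory chain, mitochondrial import and many housekeeping genes. It was counted at 203, 222, 157, 206 and 183 in vehicle mice, 248, 334, 314, 328 and 304 in semaglutide mice and 250, 161 and 162 in semaglutide + ketone ester mice. All semaglutide mice were above all vehicle mice, while mouse 19 of the ketone ester group reached the level of semaglutide mouse 13. Nrf1 rose by 0.65 ± 0.14 with semaglutide (adjusted p = 0.00698, limma), under all 13 other settings and in all 13 fits without 1 mouse. It fell by 0.70 ± 0.16 with the ketone ester added (adjusted p = 0.0137), which was lost without mouse 21 or 22 (adjusted p from 0.0728 to 0.0742) and with only the groups compared in the fit (adjusted p = 0.0549). Its difference between semaglutide + ketone ester and vehicle was -0.04 ± 0.16 (adjusted p = 0.967).

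Tfam encodes the mitochondrial transcription factor A. Its counts were 713, 598, 745, 652 and 626 in vehicle mice, 598, 512, 577, 505 and 566 in semaglutide mice and 692, 646 and 681 in semaglutide + ketone ester mice. Vehicle mouse 2 and semaglutide mouse 13 met at the edge of their ranges, 598.3 against 597.7, and every mouse given the ketone ester was above every semaglutide mouse. Tfam fell by 0.27 ± 0.08 with semaglutide (adjusted p = 0.0324). This call was lost without vehicle mouse 1, 3 or 4 or semaglutide mouse 14, 16 or 17 (adjusted p from 0.0563 to 0.0793), with no filter on low genes (adjusted p = 0.0574), with only the groups compared (adjusted p = 0.0578) and at equal library totals (-0.10, adjusted p = 0.369). The difference with the ketone ester added, 0.29 ± 0.10, missed the threshold (adjusted p = 0.0539) and passed it under 7 of 13 other settings, edgeR (adjusted p = 0.0301) and DESeq2 (adjusted p = 0.0180) among them, and without semaglutide mouse 13 (adjusted p = 0.0243).

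Ppara encodes PPARα, the fatty acid-sensing receptor of liver, heart and oxidative muscle. It was measured at 286, 193, 153, 308 and 260 normalized counts in vehicle mice, 98.6, 208, 73.3, 101 and 122 in semaglutide mice and 148, 80.9 and 245 in semaglutide + ketone ester mice. Semaglutide mouse 14 lay within the vehicle range and the other 4 were below it. Ppara fell by 1.03 ± 0.33 with semaglutide (adjusted p = 0.0370, limma), a call lost without any 1 of vehicle mice 1, 2, 4 and 5 and semaglutide mice 13, 15, 16 and 17 (adjusted p from 0.0512 to 0.0888), with no filter on low genes (adjusted p = 0.0597) and at equal library totals (adjusted p = 0.0633). Adding the ketone ester gave a difference of 0.34 ± 0.38 (adjusted p = 0.562), and it was -0.0464 without mouse 22. Against vehicle the mice given the ketone ester differed by -0.69 ± 0.38 (adjusted p = 0.576).

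Ppard encodes PPARδ, the more abundant fatty acid receptor of skeletal muscle, tied to oxidative fibres and to the fasting response. Counts were 793, 796, 709, 590 and 721 in vehicle mice, 962, 1134, 981, 922 and 979 in semaglutide mice and 755, 617 and 770 in semaglutide + ketone ester mice. The semaglutide group stood above both other groups with no overlap. Ppard rose by 0.47 ± 0.10 with semaglutide (adjusted p = 0.00754, limma), in all 13 fits without 1 mouse and under all 13 other settings. It fell by 0.48 ± 0.12 with the ketone ester added (adjusted p = 0.0174), and this was lost without mouse 21 (adjusted p = 0.0922) and with only the groups compared (adjusted p = 0.0541). The difference between semaglutide + ketone ester and vehicle was -0.01 ± 0.12 (adjusted p = 0.988).

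The PPAR transcripts therefore moved apart with semaglutide, and the ratio within each mouse shows how far. The log2 ratio of Ppara to Ppard was -1.47, -2.05, -2.21, -0.94 and -1.47 in vehicle mice 1 to 5 and -3.29, -2.44, -3.74, -3.19 and -3.01 in semaglutide mice 13 to 17, with no overlap between them. In mice 19, 21 and 22 it was -2.35, -2.93 and -1.65, across the edge of both ranges. The group means were -1.63 ± 0.51, -3.13 ± 0.47 and -2.31 ± 0.64 (SD), and were not tested.

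**Figure D3:**
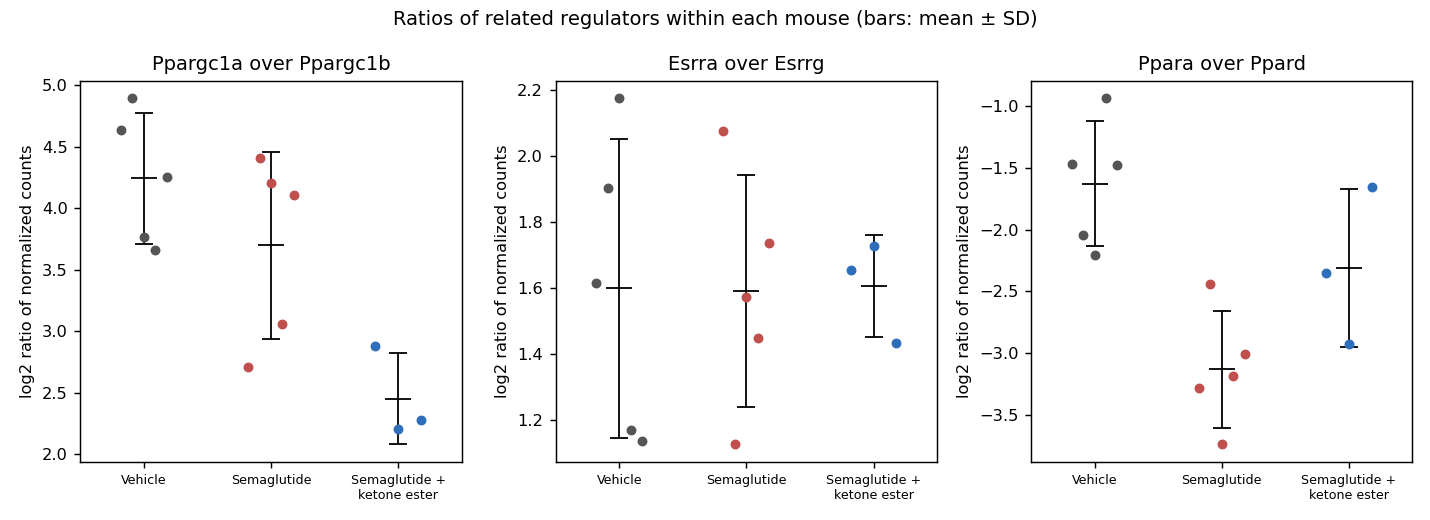
log2 ratios of normalized counts of related regulators within each mouse (vertical axes), with bars for the mean ± SD of 5, 5 and 3 mice. The Ppara over Ppard ratio of the semaglutide-treated mice, -3.74 to -2.44, lay below that of vehicle, -2.21 to -0.94, while Esrra over Esrrg averaged 1.59 to 1.61 in all 3 groups.

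Perm1 encodes a muscle protein that PGC-1α and the ERRs induce and that in turn raises ERRα and mitochondrial genes. Its normalized counts were 5621, 4564, 4120, 5938 and 5690 in vehicle mice, 3051, 5078, 2267, 1909 and 2284 in semaglutide mice and 3723, 3716 and 5510 in semaglutide + ketone ester mice. Semaglutide mouse 14 again lay within the vehicle range and the other 4 below it. Perm1 fell by 0.91 ± 0.24 with semaglutide (adjusted p = 0.0169, limma), in each fit without 1 mouse (adjusted p up to 0.0450) and under every other setting tried (adjusted p up to 0.0417). The difference with the ketone ester added was 0.63 ± 0.27 (adjusted p = 0.126), and 0.86 without mouse 14 (adjusted p = 0.0180).

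The genes lie at chromosome 5, 51454250 to 51567726 (Ppargc1a, minus strand); chromosome 18, 61298136 to 61400431 (Ppargc1b, minus); chromosome 19, 6910977 to 6921813 (Esrra, minus); chromosome 12, 86361117 to 86521628 (Esrrb, plus); chromosome 1, 187608791 to 188214885 (Esrrg, plus); chromosome 6, 30047988 to 30153458 (Nrf1, plus); chromosome 10, 71225464 to 71238280 (Tfam, minus); chromosome 15, 85734983 to 85802819 (Ppara, plus); chromosome 17, 28232700 to 28301474 (Ppard, plus); and chromosome 4, 156215868 to 156221307 (Perm1, plus), in GENCODE M21 on GRCm38.

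Levels of different genes were compared per kilobase of merged exon (GENCODE M21 gene models). The merged exons are those of every annotated transcript, 20 for Nrf1 (10282 bases) and 1 for Perm1 (3901 bases). Exons not used in muscle would lower a gene's value, so the order depends on this divisor. Perm1 was the most abundant of the regulators in each group, at 1330 ± 204 normalized counts per kilobase in vehicle, 748 ± 327 in semaglutide and 1106 ± 265 in semaglutide + ketone ester (SD). In vehicle mice it was followed by Esrra (387), Ppargc1a (355), Tfam (150), Ppard (96.0), Esrrg (94.8), Ppara (62.6), Ppargc1b (29.9), Esrrb (29.5) and Nrf1 (18.9). The ranges of neighbours overlapped for Esrra and Ppargc1a, for Ppard with Esrrg and Esrrg with Ppara, and for Ppargc1b with Esrrb and Esrrb with Nrf1, so their order within those runs was not resolved. With semaglutide Ppard (132) came before Tfam (124), with overlapping ranges, and Nrf1 (29.7) overlapped Ppara (31.4) and Esrrb (20.9). In mice given the ketone ester, Ppargc1a (147 ± 34.1) came after Perm1, Esrra and Tfam (152), with ranges that overlapped those of Tfam.

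Nuclear genes of oxidative metabolism that PGC-1 and the ERRs are known to induce fell together with semaglutide. Of 28 listed genes, 24 were lower and 0 higher (median -0.51 on the log2 scale, against a median within 0.01 of 0 for all genes tested, of which 13.2% were lower and 11.9% higher), in each of 13 fits without 1 mouse. With the ketone ester added, 24 were higher and 0 lower (median 0.63, where 9.09% of all genes were higher and 9.3% lower), with 17 to 24 higher when 1 mouse was left out. Against vehicle 0 of 28 passed in limma (median 0.09). The unadjusted p was under 0.05 for 0 of them, and for 1289 of all 12303 genes tested. No list gave a call against vehicle in edgeR or DESeq2 either (0 genes in each). Under equal library totals, TMM scaling and quantile normalization, 19 to 24 of the 28 were lower and 0 higher with semaglutide (medians -0.50 to -0.34). The same scalings gave 19 to 24 higher and 0 to 1 lower with the ketone ester added (medians 0.40 to 0.64). Averaged over the list and set against the vehicle mean, semaglutide mice 13 to 17 were at -0.52, -0.46, -0.59, -0.84 and -0.68, below all vehicle mice (-0.12 to 0.08), and -0.12, -0.02 and 0.28 in mice 19, 21 and 22. The list was drawn up with earlier results of these data known and is not independent evidence of its direction.

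Among these targets, Mb, which encodes the oxygen store myoglobin, had 47919, 30706, 28026, 43450 and 50637 normalized counts in vehicle mice, 8329, 13884, 6806, 8664 and 7661 in semaglutide mice and 25208, 21354 and 37766 in semaglutide + ketone ester mice. No semaglutide mouse reached any other mouse. It fell by 2.15 ± 0.23 with semaglutide (adjusted p = 0.000162, limma) and was 1.64 ± 0.27 higher with the ketone ester added (adjusted p = 0.00289). Ckmt2, the mitochondrial creatine kinase of muscle, fell by 1.66 ± 0.23 (adjusted p = 0.000591) and was 1.70 ± 0.26 higher with the ketone ester (adjusted p = 0.00246). Fndc5, the precursor of the secreted peptide irisin, fell by 1.42 ± 0.18 (adjusted p = 0.000434) and was 1.20 ± 0.21 higher with the ketone ester (adjusted p = 0.00406). The electron carrier gene Cycs (-0.66 ± 0.14, adjusted p = 0.00539), the isocitrate dehydrogenase gene Idh3a (-0.78 ± 0.11, adjusted p = 0.000836) and the citrate synthase gene Cs (-0.47 ± 0.09, adjusted p = 0.00326) fell with semaglutide as well. All 6 calls held in each fit without 1 mouse.

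Targets of the PPARs in muscle behaved differently by gene and by mouse. Of 25 listed genes, 1 was higher and 2 were lower with semaglutide (median -0.31), 0 were higher and 1 was lower with the ketone ester added (median -0.06), and 0 passed between semaglutide + ketone ester and vehicle in limma (median -0.31, with 24 of 25 below 0 and 0 at an unadjusted p under 0.05). Of all genes tested, 25.1% were called in the first of these comparisons, 18.4% in the second and 0.236% in the third. In the third, 6312 of all 12303 genes tested were below 0, and 1289 had an unadjusted p under 0.05. The listed genes were measured in the same mice, so their shared sign is not separate evidence from each gene. The mean of the PPAR targets relative to vehicle was -1.36 and -0.82 in semaglutide mice 13 and 14 and 0.23, 0.51 and 0.30 in mice 15 to 17, against -0.31 to 0.27 in vehicle and -0.76 to -0.27 with the ketone ester. Mice 13 and 14 lay below the vehicle range, mice 16 and 17 above it and mouse 15 within it.

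**Figure D4:**
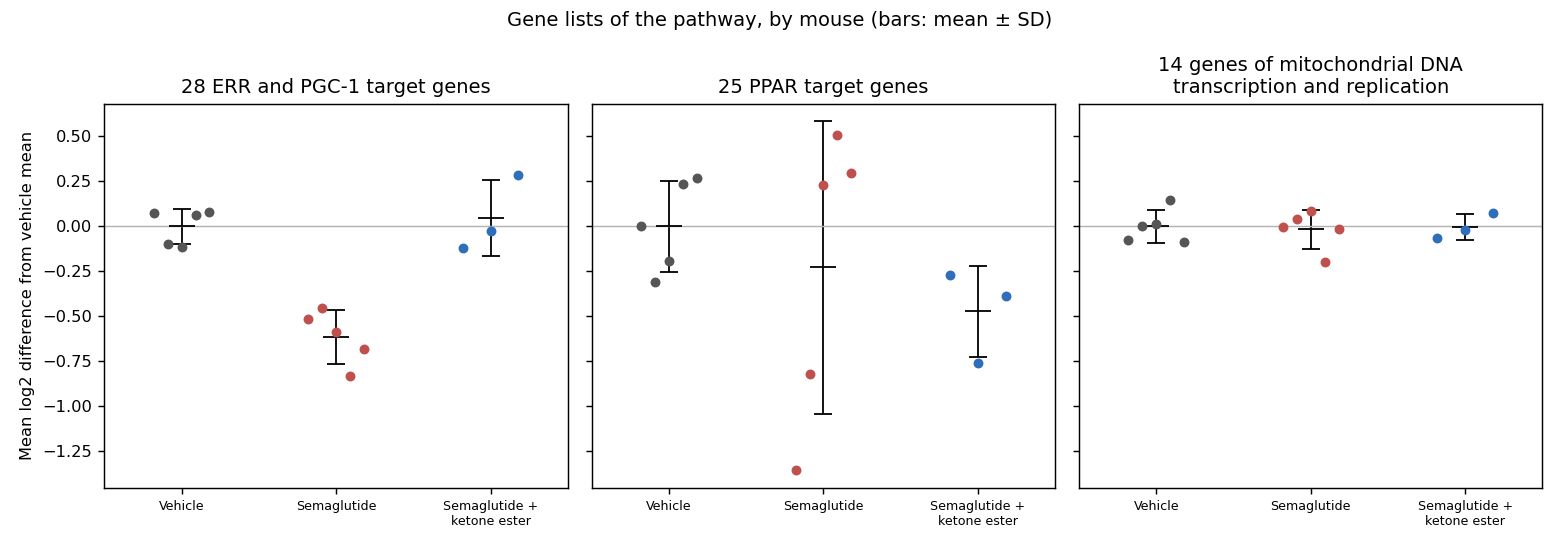
Mean log2 difference from the vehicle mean (vertical axis) over 28 ERR and PGC-1 target genes, 25 PPAR target genes and 14 genes of mitochondrial DNA transcription and replication, 1 point per mouse with bars for the mean ± SD. The ERR and PGC-1 targets of all 5 semaglutide-treated mice lay between -0.84 and -0.46, whereas their PPAR targets ran from -1.36 to 0.51.

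Pdk4, the kinase that closes pyruvate dehydrogenase during fasting, showed this split. It had 978 and 1273 normalized counts in semaglutide mice 13 and 14 and 34233, 28847 and 24557 in mice 15 to 17, against 14647 to 21344 in vehicle mice and 4938 to 11475 in mice given the ketone ester. Its difference for semaglutide minus vehicle was -1.15 ± 0.95 (adjusted p = 0.401, limma), although the mean count was 17978 in semaglutide and 17716 in vehicle. Angptl4, a secreted inhibitor of lipoprotein lipase, was at 22.2 and 15.8 in mice 13 and 14 and at 333, 626 and 313 in mice 15 to 17, against 171 to 390 in vehicle mice and 44.7 to 95.9 in mice given the ketone ester, so that mouse 16 alone was above the vehicle range (-1.09 ± 0.90, adjusted p = 0.401). Mouse 16 also had the highest summed adipocyte markers, at 11063 normalized counts, against 575 to 2674 in vehicle mice. The part of fat tissue in its values was not tested.

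Acot1, a cytosolic acyl-CoA thioesterase, was counted at 26.1, 128, 437, 560 and 622 in semaglutide mice 13 to 17, 24.1 to 68.7 in vehicle mice and 16.9 to 32.8 with the ketone ester. It rose by 2.33 ± 0.73 with semaglutide (adjusted p = 0.0357) and fell by 3.16 ± 0.84 with the ketone ester added (adjusted p = 0.0232). The first call was lost without any 1 of vehicle mice 1 to 5 and semaglutide mice 15 to 17 (adjusted p from 0.0502 to 0.0900), the second without mouse 15, 17, 21 or 22 (adjusted p from 0.0506 to 0.0919). Acadm (-0.57 ± 0.13, adjusted p = 0.00732) and Acaa2 (-0.63 ± 0.16, adjusted p = 0.0158), enzymes of mitochondrial β-oxidation, fell with semaglutide in each fit without 1 mouse, although Acaa2 lost its call at equal library totals. Ucp3, an uncoupling protein of muscle (-1.48 ± 0.52, adjusted p = 0.0536, with 0.0313 and 0.0460 as the lowest and highest without mouse 15 or 17), and Cpt1b, which brings fatty acids into mitochondria (-0.15 ± 0.16, adjusted p = 0.532), did not pass.

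Next come the genes that transcribe and copy mitochondrial DNA. Of 14 listed genes, 0 were higher and 2 lower with semaglutide (median 0.12, where 25.1% of all genes were called). With the ketone ester added 1 was higher and 0 were lower (median -0.11, against 18.4%). Against vehicle 0 passed and 1 was at an unadjusted p under 0.05, as were 1289 of all 12303 genes tested. At equal library totals 6 were higher and 1 lower with semaglutide, and 1 higher and 6 lower with the ketone ester. The mean over the list was -0.02 with semaglutide and -0.0035 with semaglutide + ketone ester relative to vehicle, so mean and median differed in sign in the first 2 comparisons. Mterf2, a regulator of mitochondrial transcript levels, fell by 1.11 ± 0.19 with semaglutide (adjusted p = 0.00221, limma) and was 1.26 ± 0.22 higher with the ketone ester (adjusted p = 0.00398). Lonp1, the matrix protease that degrades unbound TFAM, fell by 0.32 ± 0.08 (adjusted p = 0.0167), which was lost at equal library totals. The factor Tfb2m (0.09 ± 0.10, adjusted p = 0.554) and the mitochondrial RNA polymerase Polrmt (0.24 ± 0.12, adjusted p = 0.152, and 0.0120 without semaglutide mouse 13) did not pass.

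Partners and coregulators of the 10 genes were called in both directions as well. Of 23 listed genes 5 were higher and 1 lower with semaglutide (median 0.14, where 11.9% of all genes were higher and 13.2% lower). With the ketone ester added 1 was higher and 6 lower (median -0.21, against 9.09% and 9.3%). Against vehicle 0 passed and 3 were at an unadjusted p under 0.05, as were 1289 of all 12303 genes tested. Equal library totals gave 12 higher and 0 lower, then 0 higher and 15 lower. Without 1 mouse, the number higher with semaglutide ran from 2 to 8 and the number lower with the ketone ester from 1 to 10. The acetyltransferase Crebbp, which coactivates many of these factors, was at 699 to 783 normalized counts in vehicle, 811 to 977 with semaglutide and 567 to 670 with the ketone ester. These ranges did not overlap. Crebbp rose by 0.30 ± 0.08 with semaglutide (adjusted p = 0.0189, limma) and was 0.58 ± 0.09 lower with the ketone ester added (adjusted p = 0.00262), in each fit without 1 mouse. Between semaglutide + ketone ester and vehicle it differed by -0.29 ± 0.09 and did not pass (adjusted p = 0.285). Of all genes tested, 11.3% did not overlap between those 2 groups.

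Kat2a, the acetyltransferase GCN5 that restrains PGC-1α, rose by 0.56 ± 0.11 with semaglutide (adjusted p = 0.00495), and its difference with the ketone ester added was -0.41 ± 0.13 (adjusted p = 0.0486, lost in all fits without 1 mouse except that without mouse 13, adjusted p from 0.0550 to 0.161). Pprc1, the third coactivator of the PGC-1 family, rose by 0.30 ± 0.09 (adjusted p = 0.0312) and fell by 0.40 ± 0.11 with the ketone ester (adjusted p = 0.0222). The first was lost without mouse 2, 4, 5, 15, 16 or 17 (adjusted p from 0.0604 to 0.0770) and the second without mouse 17, 21 or 22 (adjusted p from 0.0509 to 0.0985). Foxk1, a repressor linked to glucose metabolism, rose by 0.57 ± 0.18 (adjusted p = 0.0353, and from 0.0533 to 0.0884 without any 1 of vehicle mice 1 to 5 and semaglutide mice 15 to 17). Its difference with the ketone ester added was -0.57 ± 0.20 (adjusted p = 0.0683, and from 0.00598 to 0.0476 without mouse 13 or 14).

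Lpin1, which acts as a coactivator of PPARα and PGC-1α, fell by 0.80 ± 0.20 with the ketone ester added (adjusted p = 0.0174, and from 0.0602 to 0.0854 without mouse 21 or 22). Its difference for semaglutide minus vehicle was 0.40 ± 0.17 (adjusted p = 0.107, and 0.0015 without mouse 13). For semaglutide minus vehicle, Gabpa, an ETS partner of PGC-1 (-0.10 ± 0.08, adjusted p = 0.370), Nrip1, a corepressor of ERR and PPAR targets (-0.41 ± 0.17, adjusted p = 0.0954), and Sirt1, a deacetylase of PGC-1α (0.24 ± 0.16, adjusted p = 0.304, and 0.0298 without mouse 13), did not pass. Rxrg, a partner of the PPARs, did not pass either (-0.92 ± 0.32, adjusted p = 0.0537), but had an adjusted p of 0.000724 without semaglutide mouse 13.

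Kinases and factors upstream of PGC-1α were called in both directions. Of 22 listed genes 2 were higher and 3 lower with semaglutide (median 0.01, where 25.1% of all genes were called). With the ketone ester added 2 were higher and 1 lower (median -0.05, against 18.4%). Against vehicle 0 passed and 2 were at an unadjusted p under 0.05, as were 1289 of all 12303 genes tested. Equal library totals gave 5 higher and 2 lower, then 1 higher and 10 lower. The mean over this list was -0.05 with semaglutide and -0.0091 with semaglutide + ketone ester relative to vehicle, opposite in sign to the median in the first 2 comparisons. Myod1, the myogenic factor, was at 129 to 224 normalized counts in vehicle, 393 to 942 with semaglutide and 213 to 403 with the ketone ester, and rose by 1.61 ± 0.24 with semaglutide (adjusted p = 0.00108, limma). Mef2c, a muscle factor acting on the Ppargc1a promoter, fell by 0.90 ± 0.21 (adjusted p = 0.0107) and was 0.85 ± 0.24 higher with the ketone ester (adjusted p = 0.0313, and from 0.0528 to 0.113 without mouse 14, 15, 17, 19, 21 or 22). Crtc2, a CREB coactivator, rose by 0.35 ± 0.10 (adjusted p = 0.0228, and from 0.0523 to 0.0602 without mouse 4, 5 or 17) and fell by 0.52 ± 0.12 with the ketone ester (adjusted p = 0.0105, and 0.0635 without mouse 22).

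Prkab2, a regulatory subunit of the energy sensor AMPK, fell by 0.63 ± 0.19 with semaglutide (adjusted p = 0.0308, and from 0.0579 to 0.0704 without mouse 2, 3, 4, 14, 16 or 17). It was 0.69 ± 0.22 higher with the ketone ester added (adjusted p = 0.0477), a call left without mouse 13 or 15 and lost without any of the other 11 (adjusted p from 0.0565 to 0.147). The catalytic subunit Prkaa2 differed by 0.32 ± 0.11 (adjusted p = 0.0519, and from 0.0387 to 0.0476 without mouse 3, 13, 14 or 16). The fast-fibre subunit Prkag3 differed by -1.50 ± 0.56 (adjusted p = 0.0688), and by -2.12 without semaglutide mouse 13 (adjusted p = 0.000341), the mouse with 6113 normalized counts where the other 4 had 382 to 1382.

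Slow fibre markers varied between mice, and the mice highest in them were also highest for some of the regulators. The summed level of 8 slow fibre markers ran from 10040 to 40547 normalized counts in vehicle, 9365 to 25970 with semaglutide and 14781 to 27479 with the ketone ester. Of these genes 1 of 8 was lower with semaglutide, where 13.2% of all genes tested were lower. With the ketone ester added 0 of 8 passed, where 18.4% of all genes were called. The unadjusted p was under 0.05 for 1 of 8, and for 4215 of all 12303 genes tested. The highest sums were in vehicle mice 1, 4 and 5, semaglutide mouse 14 and semaglutide + ketone ester mouse 22, which were also the mice with the highest Esrrg, Esrrb, Ppara and Perm1 of their groups. Vehicle mouse 2 was above mouse 3 in the sum and in each of these genes. Elsewhere the order was not kept. Mouse 21 had a higher sum than mouse 19 (23779 against 14781) but less of each gene. Semaglutide mouse 15 had the lowest sum (9365) and the lowest Ppara, but not the lowest Esrrg, Esrrb or Perm1. With the mean log2 level of these markers as a covariate, a setting added after the data were seen, Ppara differed by -0.74 ± 0.28 for semaglutide minus vehicle and lost its call (adjusted p = 0.0872, limma), whereas Perm1 (-0.72 ± 0.22, adjusted p = 0.0417), Esrra (-0.68 ± 0.17, adjusted p = 0.0219), Tfam (-0.31 ± 0.09, adjusted p = 0.0356), Nrf1 (0.67 ± 0.16, adjusted p = 0.0171) and Ppard (0.47 ± 0.12, adjusted p = 0.0188) kept theirs. Esrrg then differed by -0.49 ± 0.23 (adjusted p = 0.149) and Esrrb by -0.23 ± 0.25 (adjusted p = 0.545).

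**Figure D5:**
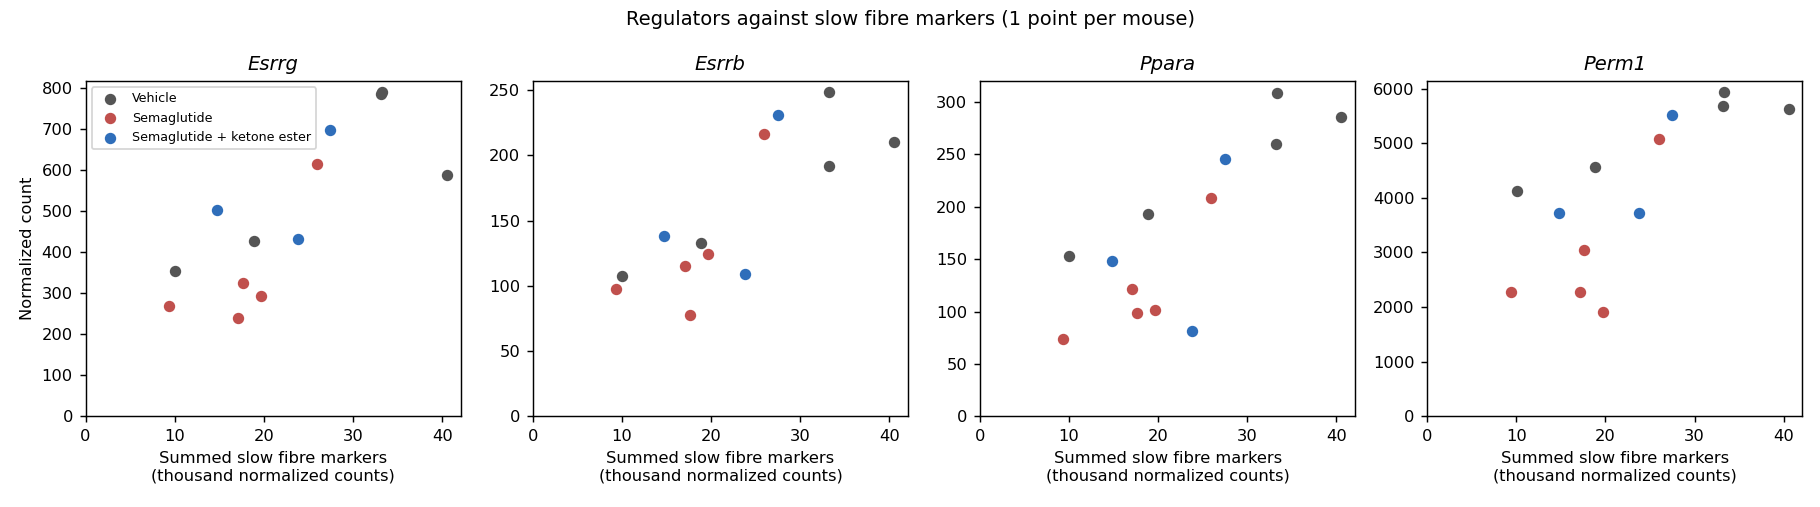
Normalized counts of Esrrg, Esrrb, Ppara and Perm1 (vertical axes, from 0) against the summed normalized counts of 8 slow fibre markers (horizontal axes, with the scale on the axis), 1 point per mouse, coloured by group. Vehicle mice 1, 4 and 5, semaglutide mouse 14 and semaglutide + ketone ester mouse 22 had the highest sums and the highest values of these genes in their groups. Among vehicle mice the sum was highest in mouse 1 and the genes in mouse 4. Sums ranged from 9365 to 40547 normalized counts.

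Other cell types and fibres differed between the groups too. Of all genes tested, 11.9% were higher and 13.2% lower with semaglutide. With the ketone ester added, 9.09% were higher and 9.3% lower. Fast fibre markers fell in 4 of 8 genes with semaglutide and were higher in 7 of 8 with the ketone ester added, with sums of 2292677 to 2828803 in vehicle, 1446404 to 2712603 with semaglutide and 2954218 to 3469834 with the ketone ester. Without 1 mouse, 2 to 6 were lower and then 3 to 7 higher. Equal library totals, TMM scaling and quantile normalization gave 3 to 4 lower and 0 to 1 higher, then 3 to 7 higher and 0 to 1 lower. Fibroblast markers fell in 5 of 6 genes with semaglutide and were higher in 4 of 6 with the ketone ester added (sums of 5450 to 12556, 4893 to 6701 and 7035 to 11670). Smooth muscle and pericyte markers fell in 4 of 5 genes with semaglutide and were higher in 1 of 5 with the ketone ester added (sums of 6275 to 8447, 3645 to 5461 and 6256 to 7149). Tendon markers fell in 3 of 5 with semaglutide, and 1 was higher and 1 lower with the ketone ester added (sums of 1253 to 6717, 745 to 2713 and 3234 to 3991).

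Erythroid markers did not pass for semaglutide minus vehicle (0 of 5 in limma). The unadjusted p was under 0.05 for 5 of 5, and for 4744 of all 12303 genes tested. These markers were higher in 4 of 5 genes with the ketone ester added (sums of 1356 to 2291, 50.5 to 3148 and 2849 to 5558). Endothelial markers were higher in 2 of 6 genes with the ketone ester added and in 0 of 6 with semaglutide, while 0 of 6 adipocyte, 0 of 6 macrophage, 0 of 5 Schwann cell and 0 of 3 tested satellite cell markers passed in either comparison. Of the general muscle markers 1 was higher and 2 lower with semaglutide, and 3 were higher and 1 lower with the ketone ester added. Equal library totals, TMM scaling and quantile normalization gave 1 to 3 higher and 0 to 2 lower, then 0 to 3 higher and 1 to 2 lower. Beside these counts, 11.9% of all genes tested were higher and 13.2% lower with semaglutide. With the ketone ester added the shares were 9.09% and 9.3%. Lep, an adipocyte marker, and Hbb-bt and Alas2, erythroid markers, were at 0 in 1 semaglutide mouse each, and no other marker was at 0 in any mouse. The part of these cell types and fibres in the results for the 10 regulators was not tested. The slow fibre covariate cannot separate fibre content from transcript levels within fibres, because both are measured in the same bulk RNA. No such fit was run for the fast fibre markers.

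Genes whose pattern over the 13 mice was most like that of a called regulator were found by the root mean square distance of log2 values centred on the gene's own vehicle mean. The nearest to Esrra were Inppl1 (distance 0.138), Rassf3 (0.139) and Mtrf1l (0.139), and the nearest to Nrf1 were Gclc (0.148), Alg1 (0.149) and Psmd3 (0.156). For Tfam they were Manbal (0.0628), Ppp2r1a (0.0681) and Arf5 (0.0740), and for Ppard Syngr2 (0.0995), Rabac1 (0.104) and Bag6 (0.106). Ppara lay nearest to Dusp18 (0.294), Ldhb (0.329) and Gbp6 (0.339), at larger distances than the others. Perm1 lay nearest to Homer2 (0.186) and Coq10a (0.224), followed by Esrra (0.234).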

How the data were processed

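Gastrocnemius RNA of 13 mice was sequenced by the authors from stranded mRNA libraries with paired-end reads, which they aligned to mm10 with DRAGEN. The authors deposited 1 table of normalized counts (signal) per gene, with 1 column per mouse. The submitters' notes also name DESeq2, and the counting tool, annotation and normalization are not given in the sources used here. Each value was a whole multiple of 1 step per mouse (100% of values, tolerance 0.01), so whole reads were recovered. All libraries carry 1 batch label. Pairs of mice within a group differed by at least 8.84 times the chi-square that sampling noise allows, so each mouse was counted as 1 replicate.

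From the deposited values, log2(normalized count + 1) of 12303 genes with a mean of at least 10 was fitted in limma 3.58.1 (R 4.3.3) with all 3 groups, 2-sided, with Benjamini-Hochberg adjustment. Alternatives were pseudocounts of 8 and 0.1, no filter, a mean of at least 50, equal library totals, TMM scaling, quantile normalization, weights for single mice, only the groups compared, leaving out each mouse, and edgeR 4.0.16 and DESeq2 1.42.0 on whole reads; the slow fibre covariate and a prior variance that follows the mean were added after the data were seen. The fits were also run on simulated data with the same spread for all genes and mice. That setting does not cover the larger differences between semaglutide mice. The 10 genes and all lists were chosen with earlier results of these data known. Named are the 10 genes, the 3 largest called changes of each list in the first 2 comparisons, 16 genes of fixed choice and the 3 nearest patterns of each called regulator. A gene that this rule names is not reported here. Counting error only: 3 reads correspond to 2.24 to 3.71 normalized counts.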

Additional observations from a re-analysis of the deposited data

Results flagged for a closer look

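Among groups of 5 mice, single values stood apart from the rest in 9 of 92 groups examined, and in 2 of 20 for the 10 regulators, where chance flags about 1 group in 20. Semaglutide mouse 14 was high for Esrrg (614 normalized counts, against 240 to 325 in the other 4 mice), for Ppard (1134, against 922 to 981) and for the target gene Mb (13884, against 6806 to 8664). Semaglutide mouse 13 was high for Mef2c (13926, against 4901 to 7422), Rxrg (1755, against 368 to 728) and Prkag3 (6113, against 382 to 1382). In the vehicle group, mouse 1 was high for Sirt1 (232, against 164 to 179) and Idh3a (9953, against 9126 to 9235), and mouse 2 for Polrmt (620.0, against 567 to 575). The cause was not tested.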

How the results depend on the processing

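For the regulators, semaglutide minus vehicle gave 6 calls, 4 to 7 under the 13 other settings and 4 to 6 without 1 mouse. Semaglutide + ketone ester minus semaglutide gave 3 calls, 6 with weights for single mice, 0 with only the groups compared in the fit (5 against 3 mice) and 0 to 5 without 1 mouse (0 without mouse 21, 1 without mouse 22, 5 without mouse 13 or 14). For the pathway lists together, that comparison gave 19 to 48 calls without 1 mouse, the lowest without mouse 22. Equal library totals moved the median of all genes to 0.17 for semaglutide minus vehicle, with 3262 higher and 929 lower where the deposited scaling gave 1459 and 1625, and to -0.24 with the ketone ester added, with 611 higher and 3587 lower where it gave 1118 and 1144. Values near 0 changed sign for semaglutide + ketone ester minus vehicle. Without 1 mouse they ran from -0.174 to 0.0229 for Esrra, -0.470 to 0.0693 for Esrrb, -0.266 to 0.0780 for Esrrg, -0.254 to 0.0639 for Nrf1, -0.0200 to 0.0589 for Tfam and -0.0841 to 0.0882 for Ppard. Esrrg was 0.0331 with the slow fibre covariate, Tfam -0.0451 at equal totals, and Ppard 0.00146 with TMM scaling, 0.0132 with quantile normalization and 0.000737 in edgeR. Ppara with the ketone ester added ran from -0.0464 to 0.747 without 1 mouse. For semaglutide minus vehicle, Gabpa was 0.0736 and Cpt1b 0.0266 at equal totals, Cpt1b 0.0129 with weights for single mice, Pdk4 0.0371 in edgeR and 0.0316 in DESeq2, and Angptl4 0.00021 in edgeR. The causes were not tested. No paired analysis was possible because the labels give the mice of different groups no shared numbers. The lowest value of the 10 genes was 73.3 normalized counts, and comparisons with the ketone ester rest on 3 mice.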
